A study of Homo sapiens with 12 samples.

Results

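The oligosaccharyltransferase of the endoplasmic reticulum attaches a preassembled sugar chain to asparagine residues of secretory and membrane proteins, which is the opening step of N-glycosylation. Its genes were followed in 12 RNA sequencing libraries from MDA-MB-231, a human cell line established from a triple-negative breast carcinoma. The members were 10 subunit genes chosen by name: RPN1, RPN2, DDOST, DAD1, OST4, STT3A, OSTC, STT3B, MAGT1 and TUSC3. All 10 were found, each under 1 identifier, among the 60649 genes in the deposited table. The list was drawn up because RPN2 was known to be low after SIRT1 knockdown in these data, and the question was whether its partner subunits followed or rose in its place. All differences of SIRT1 knockdown from control, and each RPN2 difference that uses the SIRT1 knockdown libraries, are therefore given as descriptions with no p-value. The RPN2 differences of double KD and of IGF2BP2 KD from control, which share the control libraries with the chosen contrast, are treated the same way. So is the RPN2 difference of double KD from IGF2BP2 KD, since earlier results of these data were known when the list was drawn up.

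There were 4 groups of 3 libraries: control cells with a sham short hairpin RNA, cells expressing an shRNA that targets SIRT1 (SIRT1 KD), cells expressing one that targets IGF2BP2 (IGF2BP2 KD), and cells in which both genes were targeted (double KD). Lentivirus from HEK-293T packaging cells, with Polybrene at 8 µg/mL, carried the hairpins into the cells of every group, and all cells, controls included, were kept in RPMI-1640 with 10% serum and 2.0 µg/mL puromycin. SIRT1 removes acetyl groups from proteins in a reaction that uses NAD. IGF2BP2 binds RNA and stabilises many of the transcripts it holds. The series text gives 3 independent analyses per condition without saying whether these were separate infections, so the p-values cover no more than the spread among these 12 libraries, and that spread may be technical. The sources used here give neither the hairpin sequences nor whether the double KD carried the same hairpins as the single knockdowns. Below, the SIRT1 hairpin means any shRNA that targets SIRT1, the same or not, and likewise for IGF2BP2.

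Mammalian cells build 2 forms of the enzyme around alternative catalytic subunits, STT3A and STT3B. Both forms share RPN1, RPN2, DDOST, DAD1, OST4 and TMEM258, which hold the complex together in the membrane. The STT3A form binds the protein-conducting channel through OSTC and KRTCAP2 and modifies chains as they enter. The STT3B form carries MAGT1 or TUSC3, thioredoxin-fold oxidoreductases that act on cysteine-containing acceptor sites, and reaches sites that the STT3A form skipped.

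Both 7-base words CTCAGAT and TCAGATA, which overlap by 6 bases and join into 1 word of 8 bases, were taken from earlier results on genes lower in SIRT1 KD than in control. The sequences below are shown because RPN2 and OSTC, the 2 of 10 subunit genes that hold a word in the 3′ UTR of their principal transcript, are among the 3 with the lowest ratio of SIRT1 KD to control. Each is the transcript strand from GRCh38 with GENCODE 29 transcripts, in lower case with the word in capitals, and is the longest stretch printed around that site.
RPN2: tacctggtgagCTCAGATAgtctctttctc
OSTC: ggtagattattTCAGATAtgtatgtaaaa
SIRT1: ccatgaagtgcCTCAGATAttaattaatag

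The RPN2 word lies at chr20:37241497-37241504 on the plus strand, in exon 17 of 17, 182 bases after the stop codon in a 3′ UTR of 308 bases. The OSTC word lies at chr4:108667744-108667750 on the plus strand, in exon 4 of 4, 479 bases after the stop codon in a 3′ UTR of 555 bases. SIRT1, the targeted gene, has the joined word in its coding sequence, at chr10:67912495-67912502 on the plus strand in exon 8 of 9. Its coding sequence also holds TCAGATA alone, at chr10:67906844-67906850 in exon 5. On the transcript strand alone, 17.9% of 13009 tested protein-coding genes held either word in the 3′ UTR of the principal transcript, and 2.47% held the joined word. These matches are descriptions: the words come from the same libraries, so the members' matches are no independent support and were given no test.

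Label checks and library quality come before the members. Normalised counts of SIRT1 were 799, 841 and 863 in control, 547, 496 and 539 in SIRT1 KD, 763, 691 and 730 in IGF2BP2 KD, and 396, 380 and 436 in double KD. IGF2BP2 was at 3045, 3055 and 3127 in control, 3791, 3759 and 3721 in SIRT1 KD, 709, 841 and 736 in IGF2BP2 KD, and 992, 715 and 884 in double KD. Each targeted transcript was thus low in all 6 libraries labelled with its hairpin, with no overlap with the other 6. A normalised count is the read count divided by a size factor for the library. The 11 deeper libraries held 19522606 to 22509142 gene reads each, and double KD replicate 2 held 15243152. That library also stood apart in its mitochondrial share, 1.18% against 1.99 to 2.57%, and in its distance to its partners, with an SD of log2 differences of 0.478 against 0.273 to 0.379. Its part in the results was not tested beyond leaving it out. The mesenchymal markers VIM, CD44, AXL and CAV1 were high in every group, and of 4 epithelial or hormone receptor markers ESR1 and PGR averaged 3.92 and 0.160 normalised counts, CDH1 10.4 and EPCAM 202.8. Of 9 markers of immune, fibroblast and packaging cells, 7 averaged under 10 normalised counts, none of the 9 was at 0 in every library, and the sum ran from 439 to 493 in control, 165 to 210 in SIRT1 KD, 386 to 434 in IGF2BP2 KD, then 132 to 151 in double KD. PDGFRB made up most of that sum, and whether these markers bear on the subunit values was not tested. In bulk RNA, fewer cells with a transcript and less transcript per cell cannot be told apart.

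RPN2 encodes ribophorin II, a membrane-anchored subunit shared by both enzyme forms. Its normalised counts were 6449, 6421 and 6698 in control, 1235, 1139 and 1284 in SIRT1 KD, 7714, 7285 and 7599 in IGF2BP2 KD, and 1837, 1838 and 1827 in double KD. All 6 libraries with the SIRT1 hairpin lay far below the other 6, and no 2 of the 4 groups overlapped. The SIRT1 KD level was 18.7% of control (log2 fold change -2.42, 95% interval -2.55 to -2.29) and the double KD level was 28.1% of control (-1.83, -1.96 to -1.70). Double KD against IGF2BP2 KD shares no library with the contrast that chose RPN2. There it was at 24.4%, a log2 fold change of -2.04 (interval -2.16 to -1.91), lower in 3 of 3 libraries and past the threshold under all 20 alternatives. That difference is a description, since earlier results of these data were known when RPN2 was chosen. IGF2BP2 KD stood at 115.5% of control (0.21, 0.08 to 0.33), with all 3 libraries above all 3 controls. The gene spans chr20:37178410-37241623, and the protein-coding gene MROH8, which overlaps it on the opposite strand, averaged 58.8 normalised counts, so a share of that size could not be told apart from it.

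**Figure D1:**
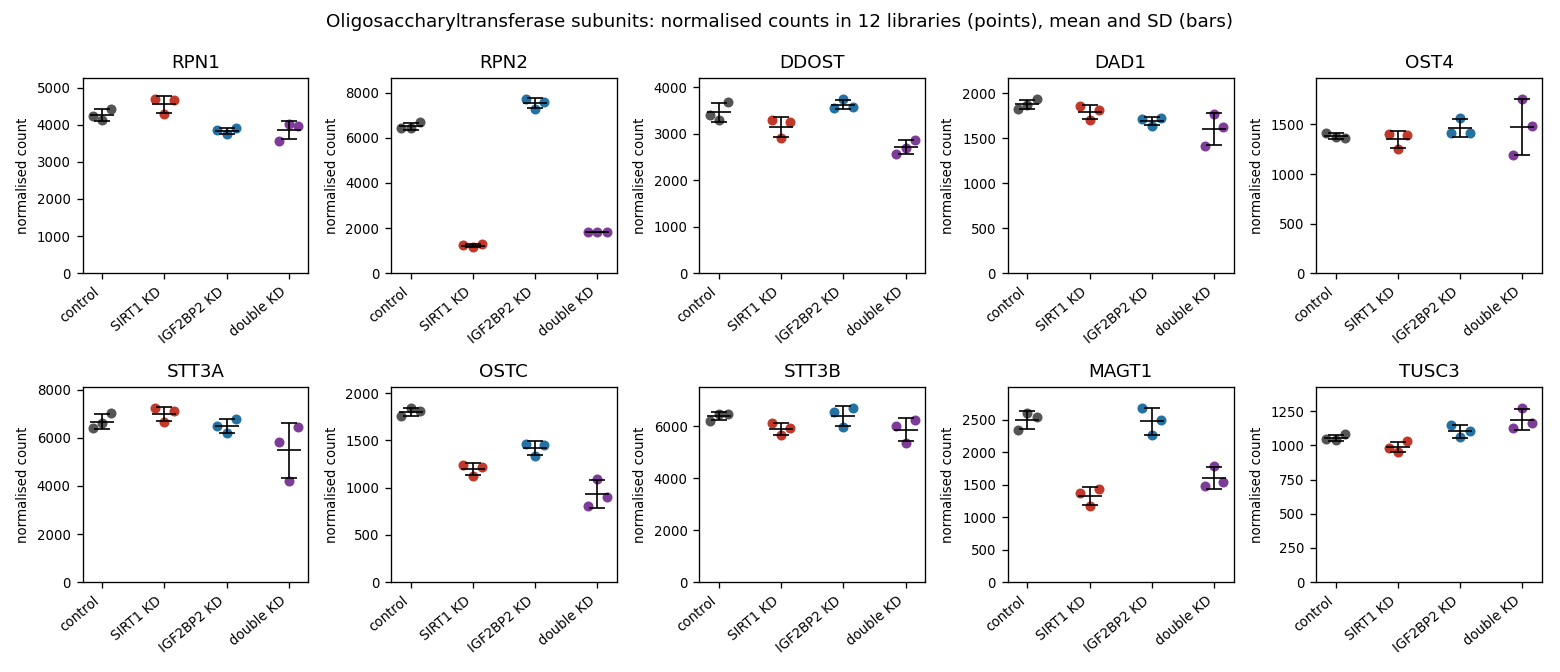
Normalised counts (vertical axes, each starting at 0) of the 10 subunit genes in 4 groups, with 1 point per library and bars for the mean and SD of 3 libraries. RPN2 falls into separate levels near 6523 in control, 1219 in SIRT1 KD, 7533 in IGF2BP2 KD and 1834 in double KD, while RPN1 stays between 3567 and 4684 in all libraries.

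RPN1 encodes ribophorin I, the other ribophorin and a neighbour of RPN2 in the complex. Its normalised counts were 4238, 4112 and 4421 in control, 4684, 4286 and 4661 in SIRT1 KD, 3845, 3749 and 3906 in IGF2BP2 KD, and 3567, 4025 and 3971 in double KD. Control and SIRT1 KD overlapped, as did IGF2BP2 KD and double KD, and both groups with the IGF2BP2 hairpin lay wholly below both groups without it. Double KD differed from IGF2BP2 KD by 0.01 on the log2 scale, with an interval of -0.13 to 0.14 (limma adjusted p = 0.958). Neither a fall nor a rise larger than those bounds lies within the interval. SIRT1 KD differed from control by 0.09 (interval -0.04 to 0.23). Against SIRT1 KD the double KD fell to 84.8% (log2 fold change -0.24, interval -0.37 to -0.10, adjusted p = 0.0120). That call was lost without SIRT1 KD replicate 1 or 3, with an adjusted p of 0.0624 in both cases. It was also lost with only those groups in the fit (0.0768). Against control the differences were -0.15 in IGF2BP2 KD (adjusted p = 0.127) and -0.14 in double KD (adjusted p = 0.0939), and neither was called. Both were called when double KD replicate 2 was left out, at adjusted p = 0.0310 and 0.0164. Per kb of principal transcript, the RPN2 level was 1.41 ± 0.0232 times the RPN1 level in control (SD, n = 3), 0.247 ± 0.00585 in SIRT1 KD, 1.81 ± 0.0328 in IGF2BP2 KD and 0.439 ± 0.0302 in double KD. The order of the ribophorin transcripts was thus RPN2 over RPN1 without the SIRT1 hairpin and the reverse with it, in every library.

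MAGT1 and TUSC3 encode alternative oxidoreductase subunits of the STT3B form. MAGT1 was at 2336, 2600 and 2542 normalised counts in control, 1375, 1172 and 1430 in SIRT1 KD, 2674, 2257 and 2495 in IGF2BP2 KD, and 1482, 1791 and 1535 in double KD. All 6 libraries with the SIRT1 hairpin lay below the other 6, and control and IGF2BP2 KD overlapped. In SIRT1 KD the level was 53.1% of control (log2 fold change -0.91, interval -1.10 to -0.73). MAGT1 fell in double KD to 64.7% of IGF2BP2 KD (-0.63, -0.82 to -0.44, adjusted p = 3.3e-05) and to 64.2% of control (-0.64, -0.83 to -0.45, adjusted p = 2.0e-05), in both cases under all 20 alternatives. The gene lies at chrX:77826364-77895593 on the minus strand. In IGF2BP2 KD it differed from control by -0.01, with an interval of -0.20 to 0.18 (adjusted p = 0.951). Double KD was 0.27 above SIRT1 KD (interval 0.09 to 0.46, adjusted p = 0.0346). That call ended without SIRT1 KD replicate 1 or 2 (adjusted p = 0.0577 and 0.195) or IGF2BP2 KD replicate 3 (0.0501). It also ended without trend and robust settings (0.0997) and with only those groups in the fit (0.110).

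TUSC3, at chr8:15417215-15766649, was at 1047, 1037 and 1082 normalised counts in control, 982, 953 and 1032 in SIRT1 KD, 1152, 1059 and 1103 in IGF2BP2 KD, and 1128, 1272 and 1163 in double KD. The double KD libraries lay above all control and SIRT1 KD libraries and overlapped IGF2BP2 KD. TUSC3 rose from SIRT1 KD to double KD by 0.26 (interval 0.12 to 0.41, adjusted p = 0.00994). With SIRT1 KD replicate 2 left out, adjusted p was 0.0526, and with only those groups in the fit it was 0.0625. Double KD differed from IGF2BP2 KD by 0.10 (interval -0.04 to 0.25, adjusted p = 0.279) and from control by 0.17 (0.02 to 0.31, adjusted p = 0.0673). The difference from control was called when double KD replicate 1 was left out, at an adjusted p of 0.0371. SIRT1 KD differed from control by -0.09 (interval -0.24 to 0.05).

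The balance of the pair can be read as the MAGT1 to TUSC3 ratio per kb of principal transcript. It was 0.875 ± 0.0512 in control (SD, n = 3), 0.496 ± 0.0349 in SIRT1 KD, 0.828 ± 0.0357 in IGF2BP2 KD and 0.499 ± 0.0194 in double KD. The 3 double KD ratios, 0.486 to 0.521, all lay below the 3 IGF2BP2 KD ratios, 0.789 to 0.859. The log2 difference was -0.73, with a two-sided exact permutation p of 0.1, the smallest that 3 libraries against 3 can give. The sum of both levels per kb was 1320 ± 39.2 in control, 988 ± 58.5 in SIRT1 KD, 1349 ± 82.8 in IGF2BP2 KD and 1189 ± 91.0 in double KD. The double KD sums (1119 to 1292) overlapped those of IGF2BP2 KD (1265 to 1430) and of control. SIRT1 KD lay below control without overlap. Which of the pair is the more abundant depends on the length used: with the union of all exons, MAGT1 stood at 513 and TUSC3 at 203 per kb in control, against 616 and 704 with the principal transcript.

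OSTC encodes a small membrane subunit of the STT3A form that contacts the protein-conducting channel. Its normalised counts were 1757, 1841 and 1816 in control, 1242, 1122 and 1219 in SIRT1 KD, 1466, 1331 and 1454 in IGF2BP2 KD, and 809, 1094 and 897 in double KD. The 4 groups did not overlap: control was highest, then IGF2BP2 KD, then SIRT1 KD, and double KD was lowest. SIRT1 KD was at 66.2% of control (log2 fold change -0.60, interval -0.78 to -0.41). OSTC fell in double KD to 65.4% of IGF2BP2 KD (-0.61, -0.80 to -0.42, adjusted p = 4.3e-05) and to 51.3% of control (-0.96, -1.15 to -0.77, adjusted p = 1.6e-07), under all 20 alternatives in both cases. It also fell in IGF2BP2 KD, to 78.5% of control (-0.35, -0.54 to -0.16, adjusted p = 0.0114). It was not called with control replicate 2 or IGF2BP2 KD replicate 2 left out (adjusted p = 0.0519 and 0.0578) and without trend and robust settings (0.0507). From SIRT1 KD to double KD it fell to 77.6% (-0.37, interval -0.55 to -0.18, adjusted p = 0.00632), with an adjusted p of 0.0555 when only those groups entered the fit. The interaction, which is the double KD difference from SIRT1 KD less the IGF2BP2 KD difference from control, was -0.02 (interval -0.28 to 0.25, adjusted p = 0.965). The gene lies at chr4:108650584-108667820, and 7 OSTC pseudogenes in the table averaged at most 7.65 normalised counts each.

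STT3A and STT3B carry the active sites. STT3A, at chr11:125591712-125625215, was at 6399, 6619 and 7026 normalised counts in control, 7233, 6671 and 7108 in SIRT1 KD, 6516, 6187 and 6791 in IGF2BP2 KD, and 5814, 4218 and 6435 in double KD. The double KD libraries were the most spread, with replicate 2, the shallow library, lowest and replicate 3 within the range of the other groups. Double KD differed from IGF2BP2 KD by -0.27 (interval -0.50 to -0.03, adjusted p = 0.0778), which became a call without double KD replicate 3 (-0.39, adjusted p = 0.00772) and was -0.086 without the shallow replicate 2 (adjusted p = 0.295). Against control, double KD fell by 0.31 (log2 fold change -0.31, interval -0.54 to -0.07, adjusted p = 0.0409). Leaving out double KD replicate 2 made that difference -0.13 and ended the call (adjusted p = 0.0984), and leaving out any one control, SIRT1 KD or IGF2BP2 KD library also lost the call, with adjusted p from 0.0504 to 0.135. It was lost with no filter on low counts (0.234), without trend and robust settings (0.110) and with only those groups in the fit (0.121) as well. Against SIRT1 KD the difference was -0.37 (interval -0.61 to -0.14, adjusted p = 0.0216), lost as a call without SIRT1 KD replicate 1 or 3 (0.0767 and 0.0694). That call was also lost with no filter (0.180), without trend and robust settings (0.0788) and with only those groups in the fit (0.0945). The difference was -0.19, still a call, without double KD replicate 2. CHEK1 overlaps STT3A on the same strand and averaged 1420 normalised counts, so reads in the shared stretch may have been split between them or dropped.

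STT3B, at chr3:31532638-31637622, ran from 6212 to 6483 normalised counts in control, 5669 to 6125 in SIRT1 KD, 5968 to 6702 in IGF2BP2 KD, then 5375 to 6238 in double KD. SIRT1 KD lay below control without overlap, and the double KD overlapped every other group. With all 4 groups in the fit, none of its differences was called. Double KD against IGF2BP2 KD gave -0.13 (interval -0.27 to 0.01, adjusted p = 0.166), IGF2BP2 KD against control 0.00 (-0.14 to 0.15) and SIRT1 KD against control -0.11 (-0.26 to 0.03). The STT3A to STT3B ratio per kb was 0.974 ± 0.0312 in control (SD, n = 3), 1.10 ± 0.0108 in SIRT1 KD, 0.945 ± 0.0202 in IGF2BP2 KD and 0.865 ± 0.120 in double KD. Double KD and IGF2BP2 KD overlapped in this ratio, with an exact two-sided permutation p of 0.3.

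DDOST encodes a shared subunit that sits beside the ribophorins. Its normalised counts were 3405, 3289 and 3670 in control, 3293, 2895 and 3252 in SIRT1 KD, 3548, 3738 and 3575 in IGF2BP2 KD, and 2556, 2700 and 2865 in double KD. All 3 double KD libraries lay below the other 9, while control overlapped both single knockdowns. DDOST fell in double KD to 74.7% of IGF2BP2 KD (log2 fold change -0.42, interval -0.57 to -0.28, adjusted p = 1.4e-04) and to 78.4% of control (-0.35, -0.50 to -0.21, adjusted p = 6.1e-04), under all 20 alternatives in both cases. SIRT1 KD differed from control by -0.14 (interval -0.28 to 0.01), and IGF2BP2 KD by 0.07 (-0.08 to 0.21, adjusted p = 0.571). Against SIRT1 KD the double KD fell by 0.22 (log2 fold change -0.22, adjusted p = 0.0309). That call was lost without SIRT1 KD replicate 1 or 3 or double KD replicate 1 (adjusted p = 0.137, 0.129 and 0.0868). It was also lost without trend and robust settings (0.0744) and with only those groups in the fit (0.114). The interaction was -0.28 (interval -0.49 to -0.08, adjusted p = 0.126), which was called without double KD replicate 2 (0.0265) and with DESeq2 (0.0483). DDOST, at chr1:20651767-20661544 on the minus strand, holds neither word in its 612-base 3′ UTR. PINK1-AS overlaps DDOST on the same strand and averaged 81.1 normalised counts, so reads in the shared stretch may have been divided or dropped.

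DAD1 encodes a small shared subunit named for a defender against cell death, and OST4 encodes a very short shared subunit that stabilises the catalytic one. DAD1, at chr14:22564905-22589269, ran from 1826 to 1931 normalised counts in control, 1704 to 1859 in SIRT1 KD, 1633 to 1723 in IGF2BP2 KD, then 1414 to 1770 in double KD. Both groups with the IGF2BP2 hairpin lay below control. DAD1 fell in double KD against control (log2 fold change -0.23, interval -0.39 to -0.07, adjusted p = 0.0229). The call was lost without control replicate 2 or 3 or double KD replicate 1, where adjusted p was 0.0608, 0.0920 and 0.115. In the last of these fits the difference was -0.15. Without trend and robust settings adjusted p was 0.0568, and with only those groups in the fit it was 0.0872. In double KD against IGF2BP2 KD the difference was -0.08 (interval -0.24 to 0.08, adjusted p = 0.451). Without double KD replicate 2, DAD1 was also called lower in IGF2BP2 KD than in control (-0.15, adjusted p = 0.0417) and in double KD than in SIRT1 KD (-0.24, adjusted p = 0.00312).

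OST4, at chr2:27070472-27071773, ran from 1368 to 1417 normalised counts in control, 1251 to 1402 in SIRT1 KD, 1411 to 1566 in IGF2BP2 KD, then 1192 to 1754 in double KD. The double KD range covered all the other libraries, and none of the OST4 differences was called. Its interval in double KD against IGF2BP2 KD was -0.22 to 0.21. Without double KD replicate 1, the library at 1192, OST4 was called higher than in control (0.22, adjusted p = 0.0497) and than in SIRT1 KD (0.26, adjusted p = 0.0310). AGBL5 overlaps OST4 on the opposite strand at a mean of 833 normalised counts, and with the strand setting of the counting not given their reads cannot be told apart.

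TMEM258 and KRTCAP2 complete the enzyme but were not on the member list. TMEM258 was at 1052, 970 and 1116 normalised counts in control, 1140, 1000 and 1129 in SIRT1 KD, 1009, 1069 and 1062 in IGF2BP2 KD, and 832, 947 and 918 in double KD. The double KD libraries lay below the other 9. TMEM258 fell in double KD against IGF2BP2 KD (log2 fold change -0.22, adjusted p = 0.0377). That call was lost without control replicate 1, SIRT1 KD replicate 3, any one IGF2BP2 KD library or double KD replicate 1 or 3, at adjusted p from 0.0512 to 0.127. It was also lost with no filter (0.116), without trend and robust settings (0.0691) and with only those groups in the fit (0.112). TMEM258 was called lower in double KD than in control (-0.22, adjusted p = 0.0372) and than in SIRT1 KD (-0.28, adjusted p = 0.0153) too. Both calls were lost under several alternatives, among them without double KD replicate 1 (0.132 and 0.0545) and with only the groups compared (0.0997 and 0.0706). MYRF and FEN1 overlap TMEM258 on the opposite strand at means of 461 and 983 normalised counts. KRTCAP2 averaged 105 normalised counts with no call in any comparison.

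The question of whether partners followed RPN2 was put to double KD against IGF2BP2 KD, which compares neither control nor SIRT1 KD libraries. Earlier results of these data were known when the list was drawn up, so the choice cannot be taken as independent of this contrast. In that contrast 4 of 10 members were past the threshold as lower (RPN2, given as a description, MAGT1, OSTC and DDOST) and 0 as higher. Of all 17576 genes 31.6% were called, 15.2% lower and 16.4% higher. Of the 9 partners, 3 were called lower and 0 higher. That total is near the 31.6% called over all genes, so nothing is read from the count. The members' median log2 fold change was -0.20, against 0.01 over all genes. In SIRT1 KD against control, where 28.6% of genes were called (12.9% higher and 15.7% lower), 3 members were called lower (RPN2, MAGT1 and OSTC) and 0 higher, and the median was -0.10 against -0.00 over all genes. Nothing is read from that count, since the contrast chose the list. RPN2 stood apart in size: its log2 fold change of -2.04 compared with -0.63 for MAGT1, the next in order. DAD1, OST4, RPN1, STT3B and TUSC3 lay between -0.13 and 0.10 without a call, and STT3A was at -0.27, also without a call (adjusted p = 0.0778).

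**Figure D2:**
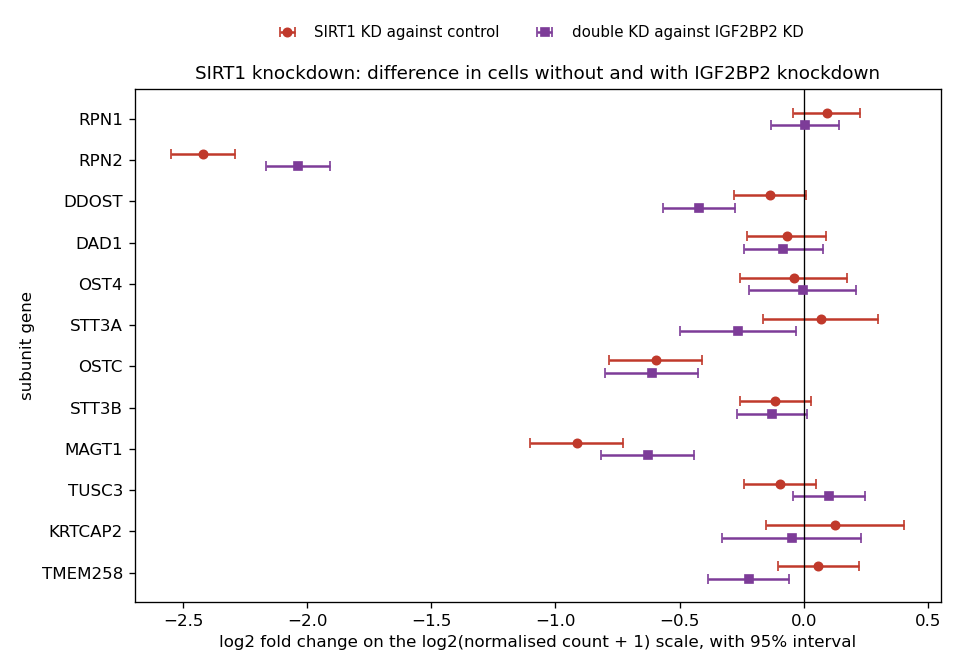
Log2 fold change with its 95% interval (horizontal axis) for 12 subunit genes in SIRT1 KD against control (circles) and double KD against IGF2BP2 KD (squares), each from 3 libraries a group. RPN2 lies near -2.42 and -2.04, MAGT1 and OSTC between -0.91 and -0.60, and of the other genes DDOST (-0.42), STT3A (-0.27) and TMEM258 (-0.22) have intervals that leave out 0 in the second comparison.

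For IGF2BP2 knockdown the pattern was smaller. In IGF2BP2 KD against control 1 member was past the threshold as higher (RPN2, given as a description) and 1 was called lower (OSTC), beside 16.3% of all genes (6.86% higher and 9.39% lower), and the median of the members was -0.00 as over all genes. The count was 4 without double KD replicate 2, when RPN1 and DAD1 were called lower too, 0 without control replicate 2, and 1 without control replicate 1 or 3 or any one IGF2BP2 KD library. In double KD against SIRT1 KD, 3 members were called higher (RPN2, MAGT1 and TUSC3) and 4 lower (RPN1, DDOST, STT3A and OSTC), beside 22.6% of all genes (11.9% higher and 10.7% lower). The RPN2 difference there, 0.59 (interval 0.46 to 0.72), is a description. That count was 3 without SIRT1 KD replicate 1 and 4 without SIRT1 KD replicate 3. It was also 1 when only those groups entered the fit, and RPN2 was the 1 left.

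**Figure D3:**
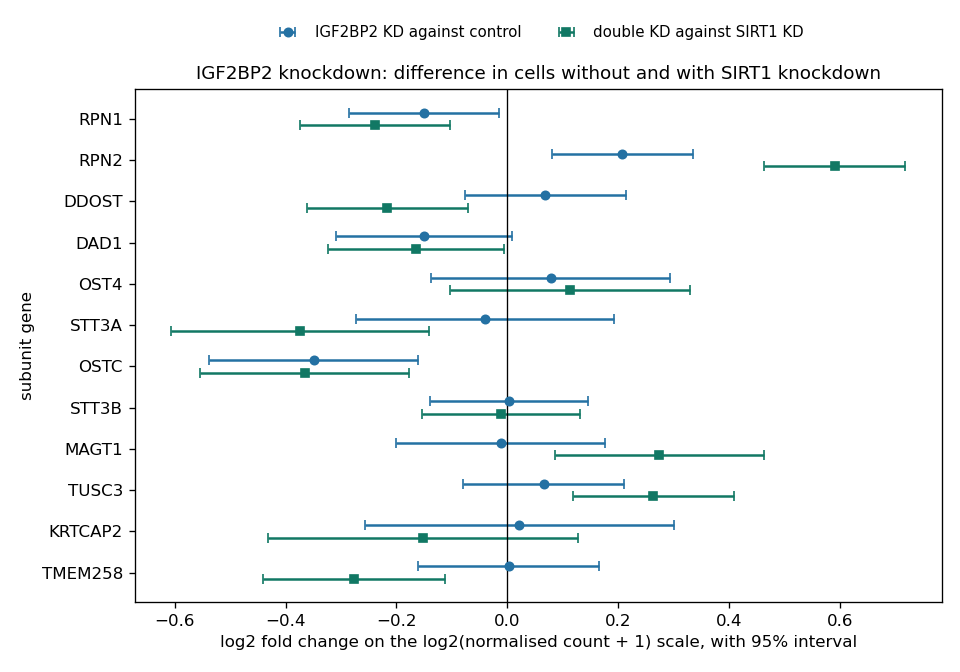
Log2 fold change with its 95% interval (horizontal axis) for 12 subunit genes in IGF2BP2 KD against control (circles) and double KD against SIRT1 KD (squares), each from 3 libraries a group. RPN2 lies at 0.21 and 0.59, OSTC at -0.35 and -0.37, and the remaining values lie between -0.37 and 0.27.

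Against control, double KD had 6 members called lower (RPN2, OSTC, MAGT1, DDOST, STT3A and DAD1) and 0 higher, beside 34.2% of all genes (16.7% higher and 17.5% lower), with a median of -0.27 against 0.01 over all genes. Past the threshold under all 20 alternatives were RPN2 (given as a description), OSTC, MAGT1 and DDOST. STT3A and DAD1 depended on single libraries and on settings of the fit, as given with their values. The count stayed at 6 without double KD replicate 2, with RPN1 (adjusted p = 0.0164) called in place of STT3A (0.0984). In the interaction 1 member passed the threshold, RPN2 at 0.38 (interval 0.20 to 0.56), beside 2.86% of all genes (1.70% higher and 1.16% lower). The double KD level of RPN2 thus lay above the sum of the single knockdown differences on the log2 scale. This is a description, since the SIRT1 KD libraries enter it. The member passing became 0 without any one control library, without SIRT1 KD replicate 1 or 2, or without IGF2BP2 KD replicate 2 or 3. MAGT1 (0.29, interval 0.02 to 0.55, adjusted p = 0.241) and TUSC3 (0.20, -0.01 to 0.40, adjusted p = 0.296) were also above 0 without a call.

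Per kb of principal transcript, which allows levels of different genes to be set side by side, the subunits were ordered as follows in control. RPN2 (2594 ± 60.4, SD, n = 3), DAD1 (2566 ± 71.8) and OST4 (2469 ± 49.9) were highest, and neighbours in that order overlapped between libraries. RPN1 (1840), TMEM258 (1819), OSTC (1676) and DDOST (1625) followed, each overlapping the next, and then STT3B (1504) and STT3A (1466), which overlapped each other. TUSC3 (704) and MAGT1 (616) did not overlap, and KRTCAP2 (186) was lowest. RPN2 ranked 1 of 12 in control and in IGF2BP2 KD (2995 ± 88.2), and 10 of 12 in SIRT1 KD (485 ± 29.5) and in double KD (729 ± 2.38), where only MAGT1 and KRTCAP2 were lower. OSTC went from 1676 ± 39.8 in control to 866 ± 135 in double KD and ranked 8 there. With the union of all exons as the length, RPN2 ranked 2 in control, 8 in SIRT1 KD, 1 in IGF2BP2 KD and 7 in double KD, so its fall in rank held with both lengths but not its exact place. The order of other subunits also moved in control: TMEM258 went from rank 5 to 10 (341 per kb of exon union), RPN1 from 4 to 7 (1066) and STT3B from 8 to 4 (1275).

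**Figure D4:**
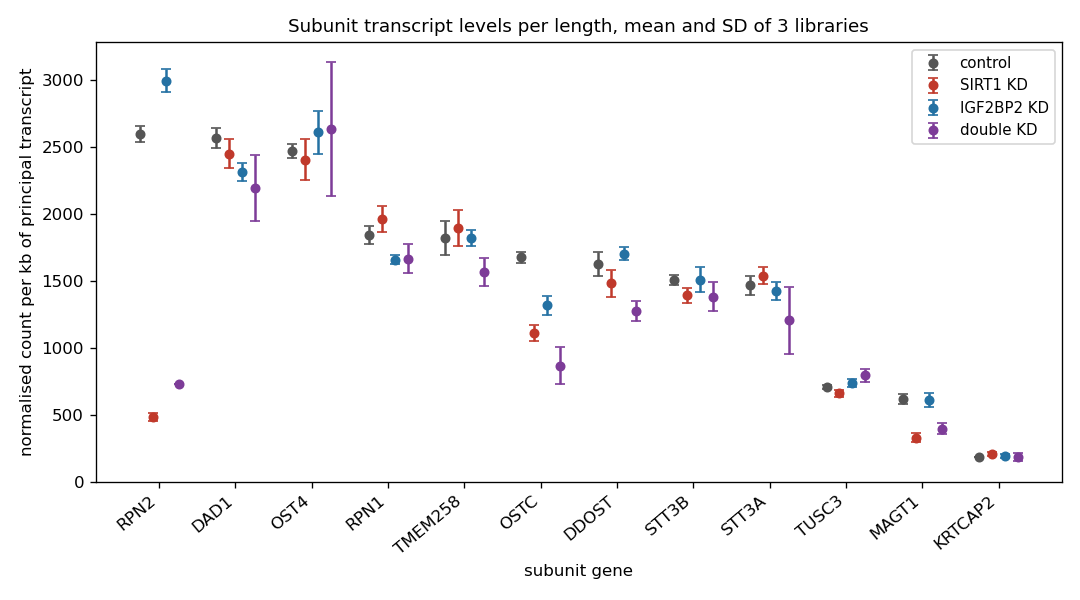
Normalised count per kb of principal transcript (vertical axis, starting at 0) of 12 subunit genes, as mean and SD of 3 libraries in each of 4 groups. RPN2 is at 2594 in control and 2995 in IGF2BP2 KD but at 485 in SIRT1 KD and 729 in double KD, near TUSC3 and MAGT1.

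The neighbouring steps of N-glycosylation were described with 3 further lists: 29 genes that assemble the lipid-linked oligosaccharide the enzyme uses, 19 genes that trim glucose from the attached glycan and fold or export the glycoprotein through lectins, and 21 genes of the protein-conducting channel and its partners. All were tested, and their members were chosen with earlier results of these data known. In double KD against IGF2BP2 KD, where 31.6% of all genes were called, the assembly list had 5 genes higher and 3 lower (median -0.03). The trimming and lectin list had 1 higher and 12 lower (median -0.33), and the channel list 5 higher and 4 lower (median -0.02). These counts became 7 and 5, 1 and 15, and 5 and 3 without double KD replicate 2.

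Among the assembly genes, the mannosyltransferases ALG9 (log2 fold change 0.51, adjusted p = 7.4e-05) and ALG3 (0.38, adjusted p = 3.0e-04) rose in double KD against IGF2BP2 KD, as did the glucosyltransferase ALG6 (0.44, adjusted p = 0.0037). DOLK, which makes dolichol phosphate, fell (-0.38, adjusted p = 0.0039). In IGF2BP2 KD against control, where 16.3% of all genes were called (9.39% lower), this list had 0 genes higher and 2 of 29 lower, ALG9 (-0.28, adjusted p = 0.0205) and the phosphomannomutase PMM2 (-0.27, adjusted p = 0.0345). Neither call held without any one control library, and the count was 7 without double KD replicate 2.

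Among the trimming and lectin genes, UGGT1, the glucosyltransferase that marks unfolded glycoproteins, fell in double KD against IGF2BP2 KD (-0.56, adjusted p = 2.2e-06). The lectin chaperone CANX (-0.53, adjusted p = 5.9e-06), its partner disulfide isomerase PDIA3 (-0.46, adjusted p = 2.3e-05) and MLEC, a lectin that binds glucosylated glycans and is known to associate with ribophorin I (-0.46, adjusted p = 3.4e-05), fell too. The cargo receptor LMAN1 fell by less (-0.38, adjusted p = 8.4e-04). NGLY1, the cytosolic enzyme that removes N-glycans, was the 1 gene that rose (0.50, adjusted p = 3.0e-05). MLEC was also the gene of this list with the lowest value in IGF2BP2 KD against control (-1.13, adjusted p = 3.7e-09), and its mean normalised count went from 4792 ± 134 in control to 3792 ± 234 in SIRT1 KD, 2185 ± 8.52 in IGF2BP2 KD and 1587 ± 111 in double KD (SD, n = 3). LMAN1 (-0.71, adjusted p = 3.6e-06) and UGGT1 (-0.40, adjusted p = 1.7e-04) made up the 3 lower genes of 19 in that comparison, with 0 higher, beside the 16.3% of all genes called. The list had 9 called, 2 higher and 7 lower, when double KD replicate 2 was left out. It had 5, all lower, when replicate 1 or 3 of that group was left out.

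Among the channel genes, SRPRB, a signal recognition particle receptor subunit (0.58, adjusted p = 5.0e-05), SSR3, a translocon-associated subunit (0.56, adjusted p = 2.8e-05), and CCDC47 (0.51, adjusted p = 9.1e-06) rose in double KD against IGF2BP2 KD. SPCS3, a signal peptidase subunit, fell (-0.54, adjusted p = 5.5e-05). These genes held their calls under all 20 alternatives. In IGF2BP2 KD against control TRAM2 was higher (0.29, adjusted p = 0.0028), and CCDC47 (-0.23, adjusted p = 0.0183) and SSR1 (-0.21, adjusted p = 0.0498) were lower. The CCDC47 call was lost without control replicate 2 or 3 or IGF2BP2 KD replicate 2 or 3, and the SSR1 call without any one control, SIRT1 KD or IGF2BP2 KD library. The list count there was 1 without any one of those 4 CCDC47 libraries, 8 without double KD replicate 2, and 5 when replicate 3 of that group was left out.

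**Figure D5:**
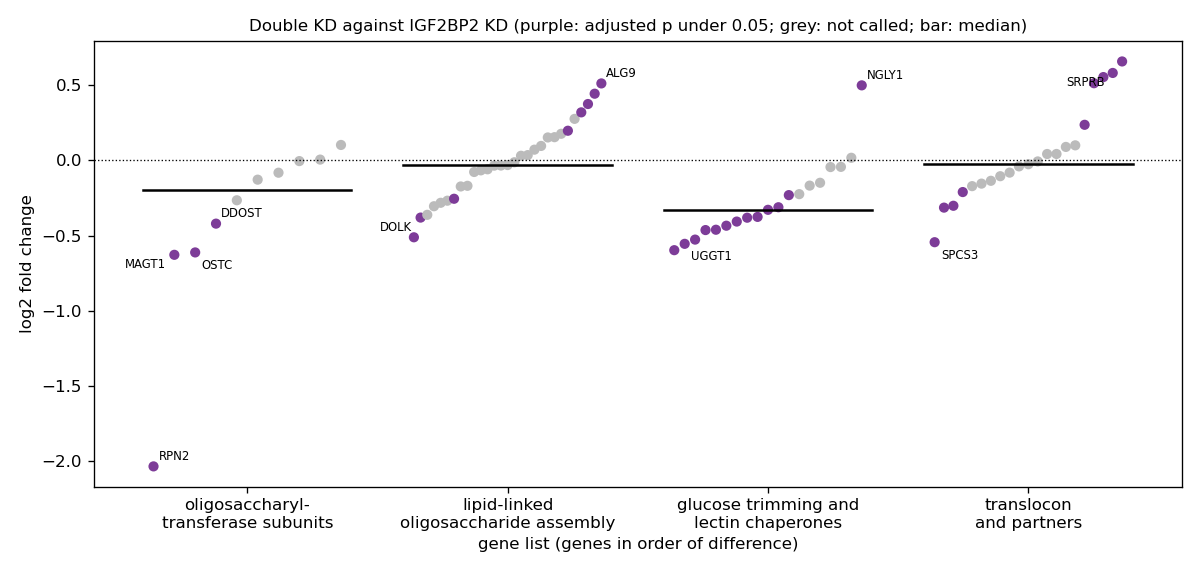
Log2 fold change in double KD against IGF2BP2 KD (vertical axis) of the 10 subunit genes and of the 3 lists of neighbouring steps, 1 point per gene in order of difference, purple where the adjusted p was under 0.05 and grey otherwise, with a bar at each median. RPN2 at -2.04 lies below every other gene drawn, and the trimming and lectin list has its median at -0.33 with 12 of 19 genes lower.

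The 7-base words can be set beside these calls, with no test. They came from earlier results on genes lower in SIRT1 KD in these data, so the counts are no independent support. The length of the 3′ UTR was not taken into account. In double KD against IGF2BP2 KD, with the 3′ UTR of the principal transcript searched, 2 of 2 subunit genes with a word were lower, and 2 of the 8 without, which were MAGT1 and DDOST. Words in other annotated transcripts of the subunits are not reported here. Over all searched genes, 35.9% of 2328 holders and 13.9% of 10681 non-holders were lower. In the trimming and lectin list, which includes CANX, PDIA3, MLEC and UGGT1 among 7 holders, 6 of the 7 holders and 6 of the 12 non-holders were lower. In the assembly list 1 of 4 holders and 2 of 25 non-holders were lower, and in the channel list 1 of 4 and 3 of 17. STT3B holds TCAGATA in its coding sequence, at chr3:31625013-31625019, and was not called.

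Finally, each of 10464 other protein-coding genes averaging at least 5 CPM (counts scaled to library size) was ranked by its Pearson correlation with RPN2 over the 12 libraries, as a description. The 5 most alike were RALGAPB (r = 0.998), LAMP1 (0.997), ARHGEF12 (0.997), SORT1 (0.996) and CHST11 (0.994). Their log2 fold changes in double KD against IGF2BP2 KD ran from -0.39 for CHST11 to -1.16 for LAMP1, smaller than that of RPN2. Among the partner subunits MAGT1 came closest, at r = 0.969 and rank 114, followed by OSTC (0.727, rank 1556), DDOST (0.723, rank 1577) and STT3B (0.675, rank 1819). RPN1 had the lowest value, -0.361. The points are 4 groups of 3 libraries, so these values mostly compare group means.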

How the data were processed

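Total RNA from 12 MDA-MB-231 libraries (4 groups of 3) was made into libraries with an Ultra II kit, per the labels' protocols. CASAVA, STAR, DESeq2 and GRCh38.p13 are named without versions per the submitters' processing notes; the sources used here give no strand or counting settings. The deposited table holds normalised signal, read counts divided by size factors; the deposited log2 ratios to control served only to check column names, and a count table with 12 unnamed columns was not used. Whole reads were recovered from the size-factor steps (100% whole within 0.001). Tests used limma 3.58.1 (trend, robust) on log2(normalised count + 1), all groups in the fit, Benjamini-Hochberg over the 17576 genes kept by filterByExpr in edgeR 4.0.16 at a minimum count of 10; a call is an adjusted p under 0.05. The interval is 95%. Fold changes of low genes are understated on this scale. The code was tested on simulated data. Alternatives were a pseudocount of 0.5, no filter, TMM scaling, edgeR's quasi-likelihood test, DESeq2 1.42.0, a replicate block, plain limma, only the groups compared, and each library left out. Members contributed 797 to 8648 reads each per library. The members, lists and words were chosen with earlier results of these data known. Genes named were the members, both targets, KRTCAP2, TMEM258, up to 4 genes of each list by adjusted p in IGF2BP2 KD against control and in double KD against IGF2BP2 KD, and the 5 most like RPN2. Transcript lengths, positions and words came from GENCODE 29.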

Additional observations from a re-analysis of the deposited data

Results flagged for a closer look

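The interaction term in limma, which asks whether the SIRT1 knockdown difference was the same with and without IGF2BP2 knockdown, was past the threshold for 503 of 17576 genes, and among the subunits and listed genes for RPN2 and SPCS3. For RPN2 the interaction was 0.38 on the log2 scale: the level was 18.7% of control in SIRT1 KD and 24.4% of IGF2BP2 KD in double KD, so the fall was smaller in double KD. RPN2 was chosen on the SIRT1 KD libraries, and the term is given without a p-value. For SPCS3, the signal peptidase subunit, the interaction was 0.48 (adjusted p = 0.0344), with mean normalised counts of 2629 in control, 1296 in SIRT1 KD, 2237 in IGF2BP2 KD and 1533 in double KD. That call was lost in 9 of the 12 fits that left out a library, at adjusted p from 0.0529 to 0.117, and without trend and robust settings (0.121).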

How the results depend on the processing

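Of 60 member results, 23 were past the threshold, and 12 of these under all 20 alternatives. Both counts include results given as descriptions: RPN2, MAGT1 and OSTC in SIRT1 KD against control, and RPN2 in other comparisons. The counts are therefore no measure of support. MAGT1, OSTC and DDOST in double KD against IGF2BP2 KD were among the 12, as was RPN2 as a description. The number of members called in SIRT1 KD against control was 3, and 5 with only the groups compared. In IGF2BP2 KD against control it was 2, and 1 with no filter, 0 without trend and robust settings and 4 with only the groups compared. In double KD against SIRT1 KD it was 7, and 4 and 1 under the last 2 of these. In the interaction it was 1, and 0 without trend and robust settings and 2 with DESeq2. Leaving out each library gave 3 to 3, 0 to 4, 4 to 7, 3 to 8, 4 to 5 and 0 to 2 members in SIRT1 KD, IGF2BP2 KD and double KD against control, double KD against SIRT1 KD, double KD against IGF2BP2 KD and the interaction. The labels share replicate numbers, but same-numbered libraries did not deviate together (correlations -0.193 to 0.0996), so the numbers were not taken to pair them. With the replicate block the counts in that order were 3, 2, 6, 7, 5 and 1, with STT3A added in double KD against IGF2BP2 KD (-0.27, adjusted p = 0.0339).

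Results that changed sign were all uncalled. OST4 in double KD against IGF2BP2 KD was 0.00017 with edgeR and 0.0021 with DESeq2, and -0.14 to 0.14 with a library left out. Over libraries left out, OST4 ran from -0.068 to 0.014 in SIRT1 KD against control. Its range was -0.060 to 0.22 in double KD against control, -0.020 to 0.26 in double KD against SIRT1 KD, and -0.10 to 0.18 in the interaction. STT3B ran from -0.030 to 0.054 in IGF2BP2 KD against control, -0.056 to 0.051 in double KD against SIRT1 KD and -0.065 to 0.048 in the interaction. MAGT1 ran from -0.069 to 0.053 in IGF2BP2 KD against control. In double KD against IGF2BP2 KD, RPN1 ran from -0.027 to 0.061 and DAD1 from -0.16 to 0.0056. The interaction ran from -0.088 to 0.074 for DAD1 and -0.14 to 0.081 for OSTC. The cause of these changes was not tested.

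Over all genes, the calls in the same order of comparisons were 5030, 2857, 6018, 3980, 5550 and 503. With only the groups compared they were 7784 in SIRT1 KD and 5122 in IGF2BP2 KD against control, 2251 in double KD against SIRT1 KD and 3640 against IGF2BP2 KD. Leaving out a library gave 1860 to 5028 in IGF2BP2 KD against control and 116 to 1765 in the interaction, which had 135 without trend and robust settings and 919 with DESeq2. With 3 libraries a group, an exact permutation test of a single value cannot go below 0.1.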
